A study of Mus musculus with 168 samples.

Results

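The genes described here are 8 ATP-binding cassette transporters of subfamily A: Abca8a, Abca8b, Abca9, Abca6, Abca5, Abca2, Abca3 and Abca7. They were followed by their mRNA in the hippocampus of Huntington's disease knock-in mice, and they are 8 of the 39179 gene identifiers in the count table. The set was chosen by symbol and joins the chromosome 11 cluster around Abca8a to other Abca genes of brain. It was also selected on measured values, since Abca8a had been seen to rise in Q175 mice at 6 months. For that reason the 6-month Q175 values and 6-month slopes on CAG length of these 8 genes are given below as descriptions without a test.

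ABCA proteins are large membrane transporters that use ATP to move lipids between membrane leaflets or out of the cell. Each chain carries a pair of transmembrane domains and a pair of nucleotide-binding domains. In the brain, much of the lipid these proteins could handle lies in myelin, the sphingolipid- and cholesterol-rich sheath made by oligodendrocytes, and in the cholesterol that glia pass to neurons. Rodents carry Abca8a and Abca8b as neighbouring copies where humans have the single gene ABCA8, and in cultured cells human ABCA8 has been linked to sphingomyelin production.

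The mice were heterozygous for an Htt allele with human HTT exon 1 and a CAG tract of 20, 80, 92, 111, 140 or 175 repeats, on a C57BL/6 background. Wild type (WT) animals, entered in the slopes at 7 repeats, were littermates of the Q20 line without the knock-in allele. The lines Q80 to Q175 therefore had no WT littermates of their own here. The groups are called WT, Q20, Q80, Q92, Q111, Q140 and Q175, and WT and Q20 together are the controls. Every genotype was sampled at 2, 6 and 10 months with 8 mice, which gives 21 groups. Each knock-in group is 1 allele of 1 line, and the Q175 allele arose by spontaneous expansion from the Q140 line. Total expected counts per library ran from 30.6 M to 46.4 M with a median of 37.9 M (M for mega). The library numbers of the 3 ages fall in separate ranges, so age and this numbering cannot be told apart, and no test was made of levels between ages. At 6 months the WT and Q175 libraries carry another number series than the other 5 groups. The 6-month fit has a term for this series, which leaves WT as the reference of Q175 and Q20 as that of Q80, Q92, Q111 and Q140.

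In total 13 libraries stood apart from the rest of their age, with a standardized connectivity below -5. They include Q175 male 2 at 2 months, Q175 male 4 at 10 months, and the 10-month control libraries WT female 2 and Q20 female 5. Sex transcripts went against the label in 2 libraries, Q80 male 2 at 2 months and Q20 female 5 at 10 months. Where leaving out the 13 libraries that stood apart changed a call on the 8 genes at 2 or 10 months, both values are given. The shares of all genes called without those 13 are not given, so such calls are not read against them. Neuronal markers were present: no gene of a list of 12 was at 0 in all libraries of a group. Camk2a, a kinase of excitatory forebrain neurons, averaged 4235 CPM (the expected count as a share of its library total, on the usual counts-per-million scale) in the 6-month controls. These genes do not tell the hippocampus from other forebrain regions, so the tissue label was not tested by them. The choroid plexus list of 11 genes summed to between 152 and 8977 CPM among the 10-month controls, and to between 201 and 8977 CPM in Q175 at that age.

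Abca8b, Abca8a, Abca9, Abca6 and Abca5 lie in this order on mouse chromosome 11, all on the minus strand, within 405.5 kb (GRCm38, chr11:109932190-110337716). The gaps between neighbours are 29.79, 4.77, 8.623 and 17.59 kb. Abca8a (ENSMUSG00000041828) spans chr11:110025634-110095978 and Abca8b (ENSMUSG00000020620) chr11:109932190-109995845. Abca9 (ENSMUSG00000041797) spans chr11:110100749-110168196, Abca6 (ENSMUSG00000044749) chr11:110176820-110251776 and Abca5 (ENSMUSG00000018800) chr11:110269369-110337716. The others lie elsewhere on the plus strand. Abca2 (ENSMUSG00000026944) is at chr2:25428703-25448540, Abca3 (ENSMUSG00000024130) at chr17:24351950-24410201 and Abca7 (ENSMUSG00000035722) at chr10:79996494-80015572.

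Bases before the transcription start are printed for Abca8a and Abca8b, the adjacent copies whose mRNAs behaved differently, and for Abca7, the member outside the cluster with the largest Q175 difference at 6 and at 10 months. They were taken from RefSeq (GRCm38.p6), which gave a promoter entry for 7 of the 8 genes, and run 5′ to 3′ on the gene's own strand. For Abca8a the printed stretch ends where the annotated gene begins, which lies upstream of the RefSeq start. The bases directly before that RefSeq start are therefore not printed for Abca8a. Positions below are counted from the RefSeq start. Capitals mark matches to the letters searched on both strands, which were CTGGCAC and CTGGTAC for the oligodendrocyte factor MYRF, ACAAAG and ACAATG for SOX factors, and TATAAA.
Abca8a, chr11:110095979-110096187, minus strand: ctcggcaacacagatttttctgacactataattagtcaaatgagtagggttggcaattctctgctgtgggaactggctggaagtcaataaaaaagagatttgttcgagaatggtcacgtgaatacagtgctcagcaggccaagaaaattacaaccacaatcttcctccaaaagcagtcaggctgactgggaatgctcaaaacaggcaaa
Abca8b, chr11:109995846-109996095, minus strand: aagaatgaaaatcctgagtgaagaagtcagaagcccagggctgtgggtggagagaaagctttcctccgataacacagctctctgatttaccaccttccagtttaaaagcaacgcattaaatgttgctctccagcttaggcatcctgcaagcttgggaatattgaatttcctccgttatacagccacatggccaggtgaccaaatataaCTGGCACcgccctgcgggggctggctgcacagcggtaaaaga
Abca7, chr10:79996244-79996493, plus strand: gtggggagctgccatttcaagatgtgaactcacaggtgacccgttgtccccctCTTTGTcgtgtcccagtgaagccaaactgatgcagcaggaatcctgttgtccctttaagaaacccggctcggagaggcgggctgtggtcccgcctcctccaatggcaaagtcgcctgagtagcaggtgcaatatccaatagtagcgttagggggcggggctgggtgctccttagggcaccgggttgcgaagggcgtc
Among 32851 promoter windows of the same length, 250 bases before to 50 after the start, CTGGCAC was present in 5.01%, CTGGTAC in 2.24%, ACAAAG in 18.7%, ACAATG in 12.6% and TATAAA in 13.6%. Abca8b held CTGGCAC with its first base at position -42 from the start, where Abca8a held none of the searched letters. Abca7 held ACAAAG on the opposite strand at -197, and Abca3 held CTGGCAC on the opposite strand at -89. G and C made up 44.3% of the Abca8a window, 51.3% of that of Abca8b, 45.3% of Abca9, 72.3% of Abca5, 65.0% of Abca2, 69.7% of Abca3 and 60.7% of Abca7, against a median of 52.7% over all promoters. A match of letters is a description and not a binding site.

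Levels per length (FPKM, fragments per kilobase of transcript, scaled to library size, as deposited) placed Abca2 first with a median of 41.6 over all libraries. Abca2 encodes an endolysosomal transporter abundant in oligodendrocytes and neurons. Abca3, best known for loading surfactant lipid into lamellar bodies of the lung, followed at 17.4. Abca5, a lysosomal and late endosomal member, stood at 7.84 and Abca8b at 6.27. Abca8a had a median of 3.77 FPKM and Abca7, a transporter tied to phagocytosis and, in humans, to Alzheimer's disease risk, 3.37. Abca9 and Abca6, whose human counterparts respond to cholesterol in macrophages, were lowest at 1.44 and 0.652. Abca2 was above Abca3, and Abca3 above Abca5, in every library, whereas Abca8a was above Abca7 in only 109, and the control ranges of this last pair overlapped at every age. No member was listed at 0 in any library. The lowest expected count of any member was 19, for Abca6.

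At 2 months no difference of Abca8a between genotypes passed the test. In CPM, the lowest, median and highest WT libraries had 13.3, 14.6 and 16.6, and the Q20 libraries had 11.2, 15.6 and 18.0. The Q175 libraries had 8.85, 15.6 and 18.4, with the lowest value from Q175 male 2. All groups overlapped, and 5 of 8 Q175 libraries lay above the control median. The fitted Q175 difference was 0.04 ± 0.09 (SE), and 0.12 ± 0.07 without the libraries that stood apart. The medians of the other lines fell between 14.5 in Q111 and 15.3 in Q140.

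At 6 months the Abca8a libraries of Q175 stood above every control. WT had 16.1, 18.1 and 22.5 CPM as lowest, median and highest, and Q20 had 15.4, 17.7 and 21.8. Q175 had 24.6, 28.8 and 34.0 CPM. The Q175 mean was 29.2 ± 3.22 CPM (SD, n = 8) against 18.5 ± 2.12 (SD, n = 16) in the controls, 1.58 times as high, and the groups did not overlap. These are the values by which the set was selected. The lines between followed at lower levels: the median was 22.1 CPM in Q80, 20.3 in Q92, 20.99 in Q111 and 23.2 in Q140, and 6 of 8 Q140 libraries exceeded the highest Q20 library. The log2 difference from Q20 was 0.16 ± 0.08 (SE) in Q80, 0.13 ± 0.08 in Q92, 0.20 ± 0.08 in Q111 and 0.28 ± 0.08 in Q140. None of the 4 passed the test by edgeR, and Q140 came nearest with an adjusted p of 0.36.

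At 10 months Abca8a was higher in Q175 than in the controls in different animals. WT had 19.5, 24.5 and 26.6 CPM as lowest, median and highest, Q20 had 6.74, 24.2 and 27.8, and Q175 had 24.5, 32.9 and 36.2. Of the 8 Q175 libraries, 7 exceeded the highest of the 16 controls, and all 8 exceeded the control median. The mean was 32.3 ± 3.97 CPM (SD, n = 8) in Q175 and 23.3 ± 4.86 (SD, n = 16) in the controls. Q111, with 24.5, 27.3 and 32.1 CPM, also had all 8 libraries above the control median, and Q140 had 5 of 8. The fitted difference was 0.43 ± 0.11 (SE) on the log2 scale for Q175 (edgeR, adjusted p = 0.013), 0.25 ± 0.11 for Q111 (adjusted p = 0.94), 0.19 ± 0.11 for Q140 (0.95), 0.08 ± 0.11 for Q92 (above 0.99) and -0.06 ± 0.11 for Q80 (0.83). Without the 13 libraries that stood apart the Q175 difference was 0.41 ± 0.06 (adjusted p = 5.1e-07), and against Q20 alone it was 0.48 ± 0.14 (adjusted p = 0.050), which just missed the threshold of 0.05.

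**Figure D1:**
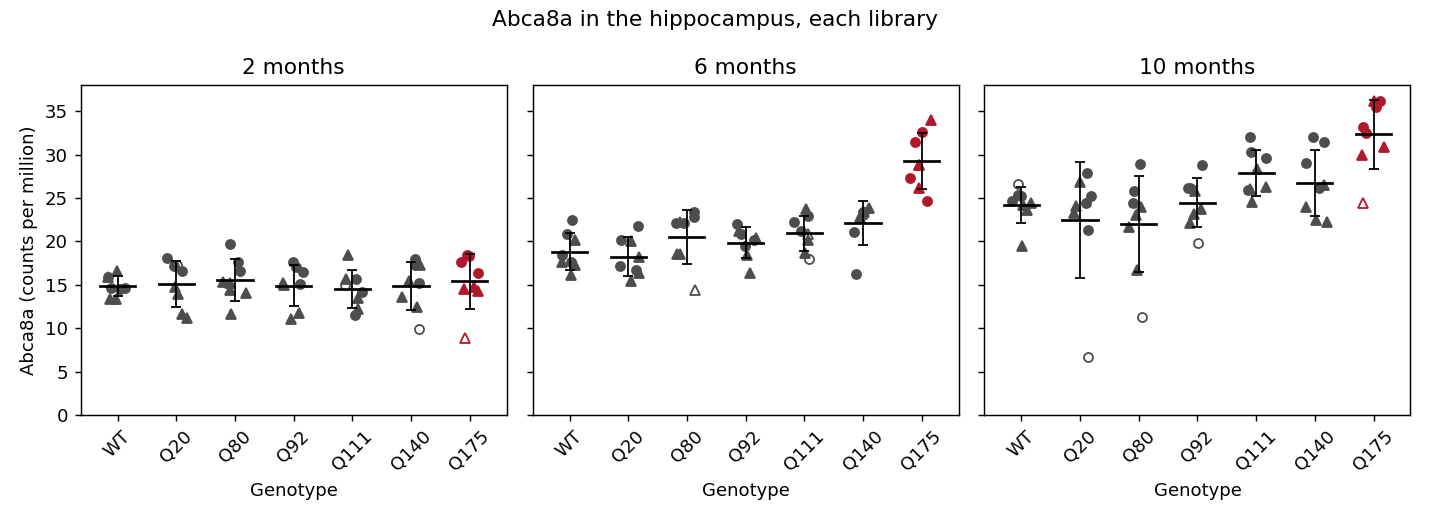
Abca8a in CPM (vertical axis, linear from 0) in each library of the 7 genotypes (horizontal axis) at 2, 6 and 10 months; circles are females, triangles males, open symbols the libraries that stood apart, red Q175, and bars the mean ± SD of 8 libraries. At 2 months the genotypes overlap, at 6 months the Q175 libraries start at 24.6 above all controls, and at 10 months 7 of 8 Q175 libraries exceed every control.

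Abca8b, the neighbouring copy, did not share this pattern. In the controls it averaged 47.7 ± 2.99, 47.0 ± 3.41 and 45.6 ± 6.73 CPM at 2, 6 and 10 months (SD, n = 16). In Q175 it averaged 43.6 ± 8.97, 50.3 ± 2.69 and 48.1 ± 8.38 CPM (SD, n = 8). The Q175 libraries had 47.6, 50.1 and 55.4 CPM as lowest, median and highest at 6 months and 29.8, 49.96 and 56.9 at 10 months, and they overlapped the controls at both ages. The fitted Q175 difference of Abca8b was -0.00073 ± 0.06 (SE) at 6 months and 0.02 ± 0.09 at 10 months (edgeR, adjusted p = 0.98). At 6 months WT averaged 49.2 CPM and Q20 44.7, a gap that cannot be told apart from the library series.

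**Figure D2:**
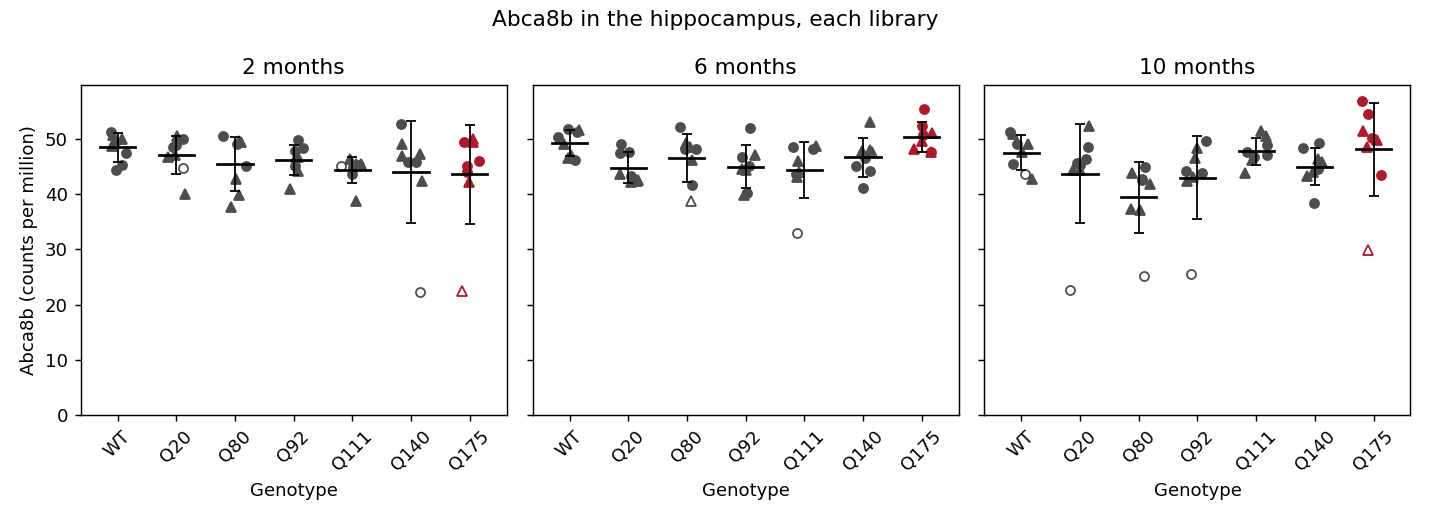
Abca8b in CPM (vertical axis, linear from 0) in each library by genotype and age, with the same symbols as for Abca8a. Q175 overlaps the controls at all 3 ages, with group means of 43.6, 50.3 and 48.1 at 2, 6 and 10 months, and the lowest points are libraries that stood apart.

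Because Abca8a and Abca8b lie side by side and were read in the same libraries, their ratio was compared within libraries. This test and those against Abca9, Abca6 and Abca5 were added after the values were seen, and 6 months was left out because it chose the set. The mean log2 ratio of Abca8a to Abca8b in the 10-month groups was -0.98 in WT, -1.02 in Q20, -0.87 in Q80, -0.80 in Q92, -0.78 in Q111, -0.76 in Q140 and -0.56 in Q175. Q175 exceeded the controls by 0.44 (exact permutation test over libraries, two-sided, p = 1.5e-05, adjusted over 8 tests 6e-05), with 8 of 8 libraries above the control median. The ratio to Abca9 exceeded the controls by 0.42 (exact permutation, adjusted p = 0.0016) and the ratio to Abca5 by 0.43 (adjusted p = 1.1e-05). The ratio to Abca6 differed by 0.0043 (adjusted p = 0.97), with 3 of 8 Q175 libraries above the control median. At 2 months the ratios to Abca8b and Abca5 exceeded the controls by 0.19 (exact permutation, adjusted p = 0.045) and 0.20 (0.039). Those to Abca9 and Abca6 gave 0.32 (0.064) and 0.17 (0.17). Without the libraries that stood apart no 2-month ratio passed (exact permutation, adjusted p from 0.061 to 0.77), while the 3 that passed at 10 months gave 0.37, 0.45 and 0.40, each with an adjusted p of 6.9e-05.

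**Figure D3:**
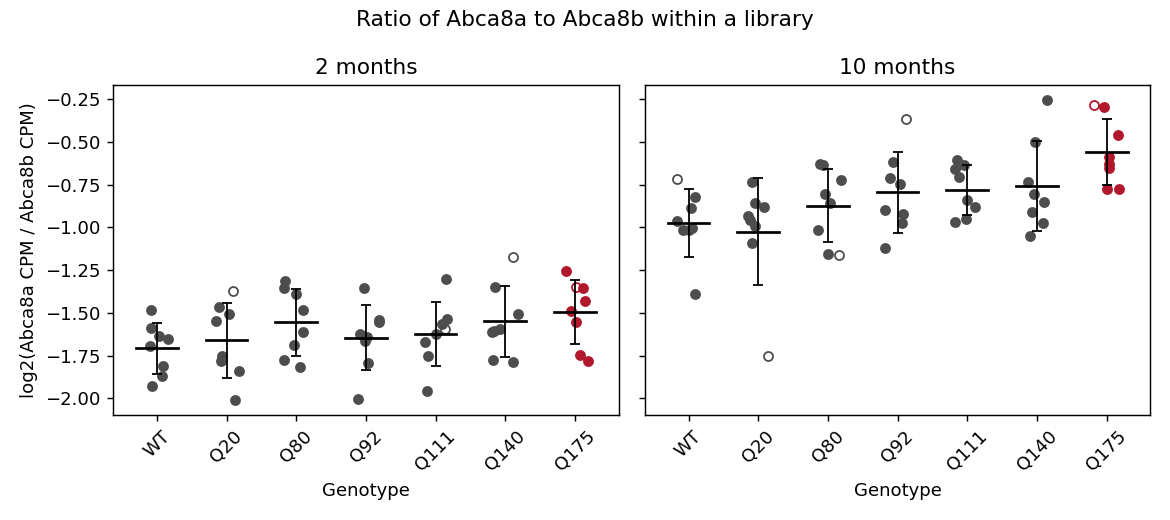
Ratio of Abca8a to Abca8b on the log2 scale (vertical axis) in each library by genotype at 2 and 10 months; open symbols are libraries that stood apart, red is Q175, and bars are the mean ± SD of 8 libraries. At 10 months the group means run from -1.02 in Q20 to -0.56 in Q175.

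Abca6, the low-abundance member of the cluster, was higher in Q175 at the later ages. At 6 months the controls averaged 3.45 ± 0.433 CPM (SD, n = 16) and Q175 4.46 ± 0.525 (SD, n = 8), and 5 of 8 Q175 libraries exceeded every control. At 10 months the Q175 libraries had 2.53, 4.89 and 5.49 CPM as lowest, median and highest, and the controls 0.585, 3.53 and 4.16. Here 7 of 8 Q175 libraries exceeded every control, and the remaining one, Q175 male 4, lay below the control median. The fitted difference of Abca6 was 0.31 ± 0.10 (SE) at 6 months and 0.40 ± 0.15 at 10 months (edgeR, adjusted p = 0.14). It did not pass with all libraries. Without those that stood apart it was 0.41 ± 0.06 with an adjusted p of 3.5e-06.

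Abca9 and Abca5, which flank Abca6, gave no call in any line at any age. Abca9 averaged 9.31 CPM in the controls and 10.4 in Q175 at 6 months, and 9.42 and 9.49 at 10 months. Its Q175 difference was 0.13 ± 0.10 (SE) at 6 months and -0.04 ± 0.18 at 10 months (edgeR, adjusted p = 0.98). Abca5 averaged 62.1 and 70.2 CPM in controls and Q175 at 6 months and 65.9 and 68.6 at 10 months, and its difference was 0.02 ± 0.07 and 0.0070 ± 0.11 (adjusted p = 0.99 at 10 months). Although all 8 Q175 libraries of Abca5 exceeded every Q20 library at 6 months, none exceeded the highest WT library. At 10 months Q80 without the libraries that stood apart had lower Abca8b, by -0.18 ± 0.04 (adjusted p = 0.021), and lower Abca5, by -0.12 ± 0.03 (adjusted p = 0.026). With all libraries the same differences were -0.19 ± 0.09 and -0.18 ± 0.11 and did not pass (edgeR, adjusted p = 0.44 and 0.57).

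Outside the cluster, Abca7 had the largest Q175 difference at 6 and at 10 months. At 6 months it averaged 23.0 ± 2.88 CPM in the controls (SD, n = 16) and 27.0 ± 2.05 in Q175 (SD, n = 8). All 8 Q175 libraries lay above the control median, and 6 exceeded every WT library. At 10 months the Q175 libraries had 18.0, 25.7 and 34.8 CPM as lowest, median and highest, the widest spread of any genotype, and 4 of 8 exceeded every control. The fitted difference was 0.28 ± 0.07 (SE) at 6 months and 0.21 ± 0.11 at 10 months (edgeR, adjusted p = 0.41). Without the libraries that stood apart it was 0.34 ± 0.09 at 10 months and passed (adjusted p = 0.0035).

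Abca2 averaged 288 CPM in the controls and 316 in Q175 at 6 months, and 259 and 284 at 10 months. Its Q175 difference was 0.16 ± 0.06 (SE) at 6 months and 0.08 ± 0.11 at 10 months (edgeR, adjusted p = 0.90). Abca3 was nearly flat, with 107.4 and 107.7 CPM at 6 months and 97.1 and 100.6 at 10 months. Its difference was -0.0056 ± 0.05 and 0.00020 ± 0.15.

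**Figure D4:**
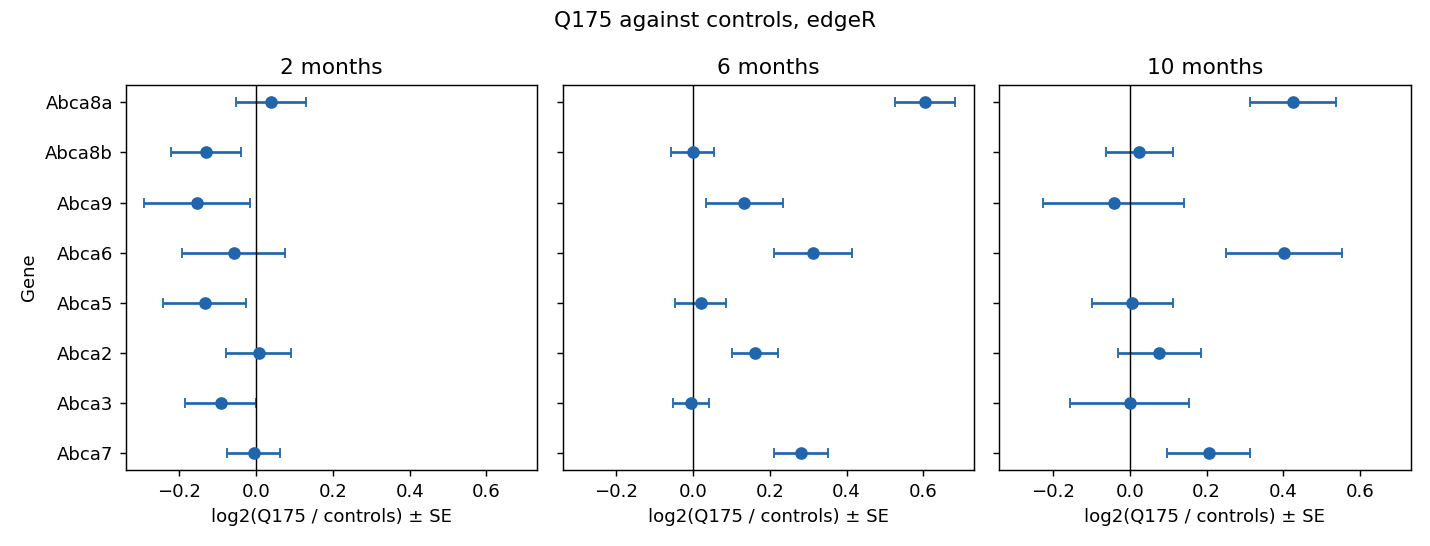
Difference of Q175 from the controls on the log2 scale (horizontal axis) with its SE for the 8 genes at 2, 6 and 10 months, from edgeR; the 6-month panel includes the values that chose the set. Abca8a stands at 0.04, 0.60 and 0.43, Abca6 at 0.31 and 0.40 and Abca7 at 0.28 and 0.21 at the later ages, while Abca8b, Abca5 and Abca3 lie near 0 at 6 and 10 months.

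Counted over 8 genes and 5 lines, 0 of 40 differences passed at 2 months and 1 at 10 months, Abca8a in Q175, by edgeR. By DESeq2 the counts were 0 and 1. At 6 months the lines Q80 to Q140 gave 0 by either tool, with an unadjusted p under 0.05 in 3 differences, all of Abca8a. Among all 17296 genes such a p was found in 452 for Q80, 426 for Q92, 625 for Q111 and 993 for Q140. The share of all tested genes called in Q175 was 0.0866% at 2 months, 5.39% at 6 months and 4.58% at 10 months, and the 6-month count of members is not read, because the selection used that contrast (2 of the 8 lay below the threshold in the fit). For Q140 the shares called were 0.00577%, 0.0578% and 0.0753%, for Q111 0.0289%, 0.00578% and 0.0232%, for Q92 0%, 0% and 0.0116%, and for Q80 0.0115%, 0% and 0.0753%. At 2 months 0 of the 40 differences had an unadjusted p under 0.05. Among all 17320 genes it was found in 569 for Q80, 151 for Q92, 889 for Q111, 800 for Q140 and 2161 for Q175. The median of the 8 Q175 differences was -0.08, 0.15 and 0.05 at the 3 ages, beside -0.0022, 6.7e-05 and -0.02 over all genes tested.

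**Figure D5:**
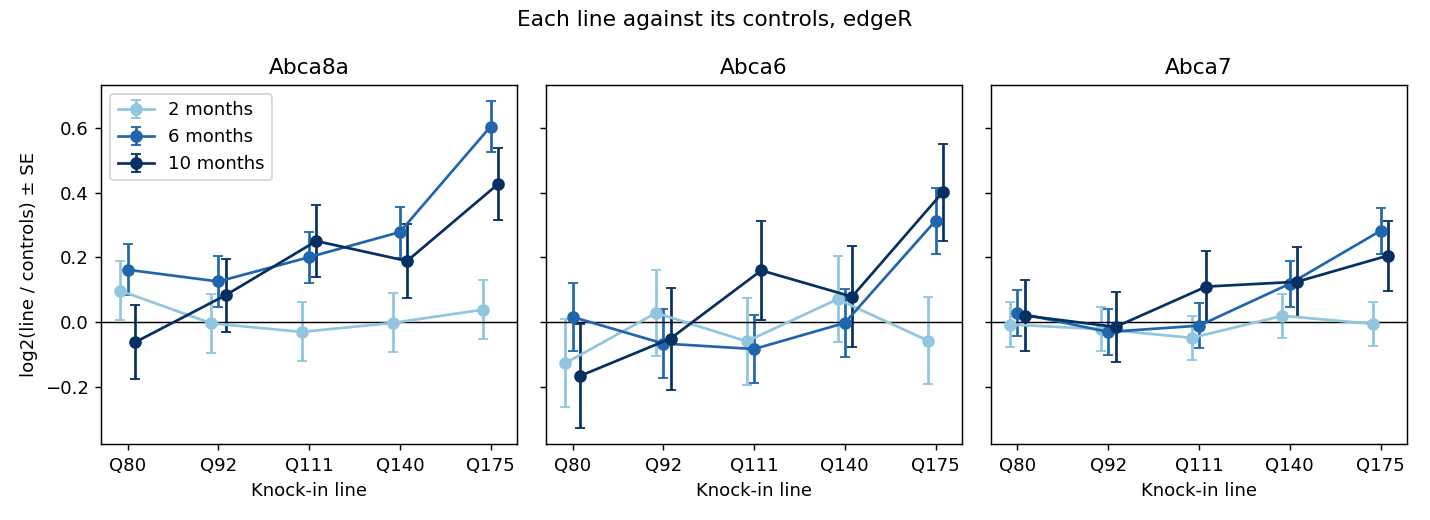
Difference of each knock-in line from its controls on the log2 scale (vertical axis) with its SE for Abca8a, Abca6 and Abca7 at 2, 6 and 10 months, from edgeR. Abca8a at 6 months runs from 0.16 in Q80 to 0.28 in Q140 and 0.60 in Q175, and the 3 genes lie within 0.13 of 0 at 2 months.

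With CAG length as a number, the slope of Abca8a per 100 repeats was 0.0073 ± 0.05 (SE) at 2 months, 0.31 ± 0.04 at 6 months and 0.24 ± 0.06 at 10 months (edgeR, adjusted p = 0.031 at 10 months). The members called were 0 at 2 months and 1 at 10 months, Abca8a. Of all genes tested 0.0577%, 4.85% and 1.72% were called at the 3 ages, and the 6-month count of members, again 2, is not read. At 2 months 0 members passed by DESeq2 too and 0 had an unadjusted p under 0.05. Among all genes tested such a p was found in 2170 of 17320, 2743 of 17296 and 1768 of 17266 at 2, 6 and 10 months. The 6-month slope was 0.13 ± 0.03 for Abca7, 0.11 ± 0.05 for Abca6 and 0.07 ± 0.03 for Abca2. At 10 months it was 0.20 ± 0.09 for Abca6 (adjusted p = 0.36), 0.12 ± 0.06 for Abca7 (0.50) and 0.10 ± 0.06 for Abca2 (0.68), by edgeR. The median slope of the 8 genes was 0.07 at 10 months and -0.010 over all genes.

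The call of the 10-month slope of Abca8a was lost without the Q175 libraries. The slope was then 0.16 ± 0.08 (edgeR, adjusted p = 0.64), beside 0.24 ± 0.06 with all libraries. That fit also had fewer libraries and a shorter range of repeats, so the lost call does not show that the slope came from Q175 alone. Leaving out a single Q175 library gave slopes from 0.22 to 0.25, and the adjusted p crossed 0.05 for 6 of the 8: 0.056 without female 1, 0.065 without female 2, 0.067 without female 4, 0.057 without male 1, 0.074 without male 2 and 0.052 without male 3. With every gene kept in the test it was 0.050, which also just missed. Without the libraries that stood apart the slope was 0.21 ± 0.04 (edgeR, adjusted p = 6.4e-05). Abca6 (0.18 ± 0.05, adjusted p = 0.0090) and Abca7 (0.19 ± 0.05, adjusted p = 0.0066) passed as well. The share of all genes called in that fit is not given here, so these calls are not read as a trait of the members.

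The slope of Abca8a was 0.23 ± 0.07 (SE) higher at 10 than at 2 months, which did not pass (edgeR, adjusted p = 0.092). For this difference 0 of the 8 members were called, 0 by DESeq2, and 2 had an unadjusted p under 0.05, against 0.987% of all genes called. Such a p was found in 2900 of 17934 genes. Without the libraries that stood apart Abca7 passed, with a difference of 0.19 ± 0.05 (adjusted p = 0.043). The differences that use the 6-month slope are given without a test. Abca8a had 0.30 from 2 to 6 months and -0.07 from 6 to 10 months, and 0.00558% and 0.0725% of all genes were called.

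No difference between Q20 and WT was called in the 8 genes. At 10 months, with all libraries, 0 of the 8 differences were above 0. Their median was then -0.16, beside -0.011 over all genes tested. At 2 months 3 were above 0, with a median of -0.0017. Between Q20 and WT, 0 of 8 passed at 2 and at 10 months by edgeR and 0 by DESeq2, and 0 had an unadjusted p under 0.05 at either age, with 0.0115% and 0.00579% of all genes called. Such a p was found in 280 of 17320 genes at 2 months and 1383 of 17266 at 10 months. The Abca8a difference was 0.0032 ± 0.11 (SE) at 2 months and -0.10 ± 0.13 at 10 months, where it was 0.03 ± 0.07 without the libraries that stood apart.

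Abca7 was lower in females than in males at 6 months. At 6 months Abca7 had a lowest, median and highest value of 14.3, 22.8 and 28.5 CPM in 28 females and 21.4, 26.4 and 31.0 in 28 males, and the female mean was lower in 7 of 7 genotypes. The female minus male difference was -0.20 ± 0.04 (SE) and passed (edgeR, adjusted p = 0.00051), as the 1 member called beside 3.9% of all genes. It was -0.01 ± 0.04 at 2 months (adjusted p = 0.93) and -0.09 ± 0.07 at 10 months (0.47). The difference between ages was not tested. Abca8a at 2 months had a mean of 16.2 ± 2.12 CPM in 27 females and 14.0 ± 2.06 in 29 males (SD). The difference was 0.21 ± 0.06 and did not pass by edgeR (adjusted p = 0.081), but passed by DESeq2 (0.040) and without the libraries that stood apart (edgeR, 0.0059). At 10 months it was 0.12 ± 0.07 (adjusted p = 0.41), and 0.17 ± 0.04 without those libraries (0.0047). The shares of all genes called were 0.589% at 2 and 0.434% at 10 months, and 0 members passed at either age by edgeR. The slope on CAG length did not differ detectably between the sexes. There 0 of 8 members passed at any age by edgeR or DESeq2, 1 had an unadjusted p under 0.05 at 2 months and 0 at the others, and 0%, 0.0347% and 0.255% of all genes were called. Such a p was found in 1112 of 17320, 1875 of 17296 and 1759 of 17266 genes.

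The cluster's neighbours gave no call. Of 16 genes annotated within 500 kb of its ends, 6 were expressed enough to test: Slc16a6, Arsg, Wipi1, Prkar1a, Fam20a and Map2k6. None of the 6 was called for the slope or for Q175 at any age by edgeR, and the slope had an unadjusted p under 0.05 in 1 of them at 2 months and in 0 at 6 and 10 months. For Q175 such a p was found in 1 at 2 months, Fam20a (0.17), in 1 at 6 months, Slc16a6 (-0.23), and in 0 at 10 months. Their slopes ran from -0.07 to 0.11 at 2 months, from -0.07 to 0.05 at 6 months and from -0.07 to 0.02 at 10 months.

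Other lipid transporters and sterol genes showed no calls. Of 8 further Abca genes, 4 were tested at 2 and 10 months and 3 at 6 months, and 0 passed for the slope. Abca1, which loads cholesterol onto apolipoproteins, had slopes of -0.08, 0.05 and 0.10. Of 10 lipid transporters of other ABC subfamilies 7 were tested, and of 14 receptors and targets of the sterol-sensing LXR system all were, with 0 passing at any age by edgeR. An unadjusted p under 0.05 was found at 2, 6 and 10 months in 1, 0 and 1 of the further Abca genes, in 1, 1 and 0 of the other ABC transporters, and in 1, 2 and 0 of the LXR genes. Apoe, the main lipid carrier of brain, had slopes of 0.15, 0.0030 and -0.11. Among 20 enzymes of sphingolipids and myelin lipids, 1 rose at 10 months: Gltp, a glycolipid transfer protein, with a slope of 0.16 ± 0.04 (edgeR, adjusted p = 0.034). An unadjusted p under 0.05 was found in 4, 4 and 5 of the 20 at the 3 ages. Among all genes tested for the slope it was found in 2170 of 17320, 2743 of 17296 and 1768 of 17266. The median slope of that list was 0.01, -0.00095 and -0.0065 at the 3 ages.

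In bulk tissue fewer cells of a type and less RNA per cell cannot be told apart, so marker lists are given beside the Abca8a result. Of 22 mature oligodendrocyte markers, 0 passed at 2 months, 3 rose and 0 fell with CAG length at 6 months, and 1 rose and 1 fell at 10 months. An unadjusted p under 0.05 was found in 2, 6 and 12 of the 22. Among all genes tested for the slope it was found in 2170 of 17320, 2743 of 17296 and 1768 of 17266. In Q175 at 10 months 1 rose, Anln, and 10 had such a p, with a median difference of 0.07. For that contrast 2364 of 17266 genes had such a p. Anln, an actin-binding protein of myelinating cells, had slopes of 0.34 ± 0.05 at 6 months and 0.32 ± 0.07 at 10 months (edgeR, adjusted p = 0.0089). Apod, a lipid-binding lipocalin, had a 6-month slope of 0.24 ± 0.06, and Gjb1, a gap junction protein, one of 0.22 ± 0.07. Mal, a myelin proteolipid, had a 10-month slope of -0.18 (edgeR, adjusted p = 0.050, under the threshold before rounding). Mbp, the major myelin protein, had slopes of 0.09, 0.0090 and 0.02. The list's median slope was 0.08, 0.05 and 0.04. Its summed level ran from 3521 to 7072 CPM in the 10-month controls and from 4852 to 6943 in Q175, with no marker at 0 throughout.

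Of 12 markers of newly formed oligodendrocytes and precursors, 1 rose at 6 and at 10 months. It was Enpp6, a choline-specific phosphodiesterase of newly formed oligodendrocytes, with slopes of 0.48 ± 0.08 and 0.51 ± 0.09 (edgeR, adjusted p = 0.00025 at 10 months). Its mean was 4.13 and 7.50 CPM in controls and Q175 at 6 months and 4.203 and 7.59 at 10 months. The list summed to between 295 and 403 CPM in the 10-month controls and between 303 and 431 in Q175. When the mean oligodendrocyte marker level of each library was added to the fit, the Q175 difference of Abca8a at 10 months was 0.37 ± 0.11 (adjusted p = 0.046) and its slope 0.21 ± 0.06 (0.083, no longer a call). The part of the precursor markers was not tested.

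For the slope 3 of the 12 neuronal markers fell at 6 months and 0 passed at the other ages by edgeR, with an unadjusted p under 0.05 in 1, 6 and 1 of them at 2, 6 and 10 months. They were Camk2a (fell by 0.12 on the log2 scale), Snap25, a synaptic fusion protein (by 0.09), and Slc17a7, a vesicular glutamate transporter (by 0.08). Of 11 astrocyte markers 1 rose and 1 fell at 6 months, S100b (slope 0.15) and Glul (-0.06), and 1 fell at 10 months, Gja1 (-0.12), with an unadjusted p under 0.05 in 3, 5 and 5. In Q175 at 10 months, the contrast of the Abca8a call, 2 neuronal markers fell, Camk2a (-0.41) and Nefl, a neurofilament (-0.14), and 7 of 12 had an unadjusted p under 0.05, with a median difference of -0.11. In the same contrast 3 astrocyte markers fell, Glul (-0.23), Gja1 (-0.20) and Gfap (-0.18), and 7 of 11 had such a p, with a median of -0.18. The counts of such a p among all genes are those given above. The neuronal list summed to between 7023 and 12620 CPM in the 10-month controls and between 9908 and 11276 in Q175, with medians of 12171 and 10780. The astrocyte list summed to between 4198 and 7540 and between 4979 and 6469, with medians of 6894 and 6054. Both low control ends came from Q20, and WT alone ran from 11496 to 12600 and from 6827 to 7193. At 6 months the neuronal list ran from 11857 to 13045 CPM in the controls and from 11276 to 11794 in Q175. The 6-month astrocyte list ran from 6808 to 7317 and from 6358 to 6741. Of the microglial, endothelial and pericyte, fibroblast, and choroid plexus lists 0 genes passed for the slope at any age by edgeR. An unadjusted p under 0.05 was found at 2, 6 and 10 months in 4, 0 and 1 of the microglial, 2, 1 and 0 of the endothelial and pericyte, 1, 3 and 1 of the fibroblast, and 11, 0 and 0 of the choroid plexus genes, whose median slope at 2 months was -1.39. The fibroblast list summed to between 123 and 529 CPM in the 10-month controls and between 117 and 457 in Q175. The part of these lists in the Abca8a result was not tested.

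With all libraries, animal-to-animal variation, after removing group and sex means, was shared among most members. For most pairs it was weaker without the libraries that stood apart, and some pairs then had a negative r. Over 28 pairs and all libraries, Abca8b and Abca5 had Pearson's r = 0.86 and Spearman's rho = 0.56 (permutation test, p = 1e-05 each, the smallest that 100000 resamples give, adjusted 1.3e-05 and 1.7e-05). Within 2, 6 and 10 months r was 0.89, 0.50 and 0.92. It was 0.80 without the 2 farthest libraries and 0.42 without the 13 libraries. Without them the highest values were 0.72 for Abca2 and Abca7, 0.70 for Abca2 and Abca3, 0.63 for Abca3 and Abca7, and 0.56 for Abca8a and Abca6. Abca8a and Abca8b had 0.70 with all libraries and 0.30 without the 13. In the same way Abca9 and Abca3 went from 0.82 to 0.13, and Abca6 and Abca3 from 0.75 to -0.03. Abca8b and Abca9 went from 0.69 to -0.04, and Abca5 and Abca3 from 0.68 to -0.16.

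The genes whose levels over all libraries, centred within age, were most like those of Abca8a among 17032 compared were Rdx (r = 0.83), Ifit2 (0.81), Wrn (0.81), March8 (0.80), Reep3 (0.80) and Klhl4 (0.79). Without the 13 libraries the same 6 had r from 0.64 to 0.75. For the other members the closest genes were Tnik for Abca8b (0.92), Fgd6 for Abca9 (0.92), Anapc1 for Abca6 (0.86), Atp13a3 for Abca5 (0.96), Nfasc for Abca2 (0.90), Cdc42bpb for Abca3 (0.98) and Mroh1 for Abca7 (0.84), and without the 13 libraries these had r from 0.63 to 0.86. These correlations share libraries and depth and are descriptions.

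Exact runs of 50 bases were shared between copies only to a small extent. How reads were assigned to the copies was not tested. Of all runs of 50 bases in its annotated transcripts, Abca8a shared 1.64% with another gene, the most with Abca8b, and Abca8b shared 2.45%. Abca9 and Abca6 shared 0.162% and 0.243%, the most with each other, and Abca5, Abca2 and Abca7 shared 0. Abca3 shared 10.1%, mostly with D330041H03Rik on the opposite strand, which had a median of 2.43 CPM beside 106 for Abca3. Gm11697, on the opposite strand of Abca8b, had a median of 0.028 CPM. Whether counting used the strand is not given in the sources used here, so reads from the stretches where these pairs overlap cannot be told apart.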

How the data were processed

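Hippocampal mRNA of 21 groups of 8 mice was sequenced (total RNA, CASAVA 1.8.2 per the labels). The authors deposited expected counts per gene, 16.889% of them not whole, and FPKM values. Aligner, counter, build and strand use: not given in the sources used here. Of 39179 identifiers, 37607 matched a GENCODE M21 symbol.

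Expected counts were rounded and fitted per age in edgeR 4.0.16 (R 4.3.3) by quasi-likelihood with TMM scaling, filterByExpr (minimum count 10, total 15) and sex, plus library series at 6 months. Each fit tested all genes passing the filter (17320, 17296 and 17266 at 2, 6 and 10 months), with Benjamini-Hochberg adjustment and a threshold of 0.05. All 8 members passed the filter at each age. Slopes are log2 per 100 repeats. CPM is the expected count over the library total. Correlations used log2(CPM + 0.5). DESeq2 1.42.0, RLE scaling, no filter, covariates, other controls and left-out libraries were alternatives. Only the 10-month slope fit was tried on simulated counts, and the outcome is not given here.

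Every member was described, with up to 4 genes past the threshold per list and age and the genes closest by correlation. Abca1, Apoe and Mbp were named outside this rule, after their values were seen. Members and lists were chosen with earlier results of these data known. Labels name each library by group, sex and number. Same-numbered libraries did not deviate together (mean r -0.0074, -0.014 and 0.028 at 2, 6 and 10 months). Within groups the counts of every pair of libraries differed beyond sampling noise (lowest chi-square per gene 3.38 over 588 pairs). The study's methods give 8 mice per group, so p-values measure the spread between mice.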

Additional observations from a re-analysis of the deposited data

Results flagged for a closer look

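Each of the 8 genes was checked in each of the 21 groups of 8 libraries, and in 42 checks the lowest or highest library stood far from the others by Dixon's criterion. Chance gives about 1 in 20 groups. Of the 42 values, 37 came from the libraries with connectivity below -5, given here in CPM. Q140 female 4 at 2 months had Abca8b 22.3, Abca5 22.7 and Abca3 137. Q175 male 2 at 2 months had Abca8a 8.85, Abca8b 22.5, Abca9 1.5, Abca6 0.828, Abca5 27.2 and Abca3 29.6. Q111 female 1 at 6 months had Abca8b 33, Abca9 6.51, Abca2 196, Abca3 69 and Abca7 14.3. Q80 male 4 at 6 months had Abca2 247. Q175 male 4 at 10 months had Abca6 2.53, Abca5 49.3 and Abca3 64.4. Q20 female 5 at 10 months had Abca8a 6.74, Abca8b 22.7, Abca9 1.6, Abca6 0.585, Abca5 24.1 and Abca3 24. Q80 female 4 at 10 months had Abca8b 25.2, Abca9 1.19, Abca6 1.29, Abca5 26.2 and Abca3 30.1. Q92 female 4 at 10 months had Abca8b 25.5, Abca9 2.92, Abca6 0.964, Abca5 35, Abca2 135, Abca3 27.9 and Abca7 9.83. WT female 2 at 10 months had Abca9 14.6. All of these are low values except Abca9 in WT female 2 at 10 months and Abca3 in Q140 female 4 at 2 months, which are high. The other 5 came from libraries that did not stand apart. Abca8a was 16.2 in Q140 female 2 at 6 months, with the nearest library of its group at 21.1. Abca8a was 19.5 in WT male 1 at 10 months, with the nearest library of its group at 23.6. Abca8b was 38.8 in Q111 male 2 at 2 months, with the nearest library of its group at 43.5. Abca3 was 89.7 in WT male 2 at 10 months, with the nearest library of its group at 103. Abca7 was 27.9 in Q111 male 1 at 10 months, with the nearest library of its group at 24. No cause of these values was tested.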

How the results depend on the processing

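Of 105 alternatives for the main results, 79 were labelled as kept and 26 as moved, and the cause was not tested. Most of these results are numbers of members past the threshold, and a change from 2 to 3 members was labelled as kept. The 105 also include alternatives of the correlation of Abca8b with Abca5, which is not a number of members. Without the Q175 libraries 0 members passed for the slope at 6 and at 10 months, as at 6 months in the series of Q20 to Q140 alone (0). Without the libraries that stood apart, 3 passed for the 10-month slope and 5 of 40 line differences at 10 months. In the same setting Abca7 passed for the difference of slopes from 2 to 10 months, and 3 of the sex differences passed. The shares of all genes called in these alternative fits are not given here, so the member counts are not read against them. Calls that use the 6-month Q175 values, as differences, slopes or slope differences, are not read, because the selection used those values. The 6-month line count was also 4 with no series term, which adds Abca6 in Q175 and Abca8a in Q140 (0.25), and 4 with each library series in a fit of its own. At 10 months the slope count was 0 with no filter and 0 with the oligodendrocyte marker level as covariate, and leaving out a single Q175 library gave 0 to 1. The 10-month line count was 0 with Q20 alone as control. DESeq2 gave 2 sex calls. Without the 2 libraries whose sex transcripts went against the label, an alternative chosen after seeing the data, the sex difference of Abca8a was 0.21 at 2 months and 0.15 at 10 months and did not pass.

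With sex and number of the label as a replicate block, 2 line differences passed at 10 months, Abca8a in Q175 (0.36) and Abca8b in Q80 (-0.23). The 10-month slope count under the replicate block was 1, and no other count that is read here changed. Its 10-month Q175 values were -0.013 for Abca8b, -0.044 for Abca5 and -0.068 for Abca3.

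The signs of these values changed. The 2-month slope of Abca8a was -0.0058 without Q175, and -0.0015 to 0.033 when a Q175 library was left out. The 6-month slope of Abca6, 0.11 with all libraries, was -0.026 without Q175 and -0.026 in the series of Q20 to Q140 alone. The 6-month Q175 value of Abca8b was 0.00038 by DESeq2, 0.00039 with RLE scaling, 0.0027 with the oligodendrocyte covariate, 0.069 with no series term and 0.0036 in its own series; that of Abca3 was 0.014 with the oligodendrocyte covariate. At 10 months against WT alone the Q175 values were -0.019 for Abca8b, -0.053 for Abca5, -0.025 for Abca2 and -0.087 for Abca3, and against Q20 alone 0.12 for Abca9. With the order of lanes read from the library numbers as covariate Abca5 had -0.0076 and Abca3 -0.0043. Abca3 had -0.0014 by DESeq2, -0.0016 with RLE scaling and -0.0072 with the oligodendrocyte covariate. The ratio of Abca8a to Abca6 was -0.0031 without the libraries that stood apart.

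The correlation of Abca8b with Abca5 was 0.50 within 6 months, 0.92 within 10 months, 0.80 without the 2 farthest libraries and 0.42 without those that stood apart. Depth limits Abca6 most, with 19 expected counts in its lowest library.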

Other observations

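Abca8a also stood at different levels in the 3 age sets among the controls: 14.96 ± 1.98 CPM at 2 months, 18.5 ± 2.12 at 6 months and 23.3 ± 4.86 at 10 months (SD, n = 16 each), while Abca8b stood at 47.7, 47.0 and 45.6 CPM. No test was made between ages. The mean log2 ratio of Abca8a to Abca8b in WT was -1.71 at 2 months, -1.39 at 6 months and -0.98 at 10 months.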
